A study of Mus musculus with 6 samples.

Results

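Hyaluronan is a long, unsulfated sugar chain of the extracellular matrix that fibroblasts make at the plasma membrane. Hyaluronan synthases (Has1, Has2 and Has3) build it from UDP-glucuronic acid and UDP-N-acetylglucosamine, and hyaluronidases (Hyal1 and Hyal2) and the hyaluronan-binding protein CEMIP break it down. CD44 is its main cell surface receptor, versican (Vcan) is a large proteoglycan that binds it in the matrix, and TSG-6 (Tnfaip6) moves heavy chains of inter-alpha-inhibitor onto it. In skeletal muscle, hyaluronan fills the space between fibers and is part of the matrix that changes in fibrosis.

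These 9 genes were taken from the deposited expression table by gene symbol, and all 9 were found among its 34745 genes. RNA-seq was performed on the NOR-10 line, which consists of fibroblasts from mouse skeletal muscle. There were 3 libraries of cells given PBS (Control) and 3 of cells given D-gal (D-galactose, 20 mg/mL for 3 days, per the methods of the study). All 6 came from this 1 cell line, and the labels name no genetic change. The labels number the replicates but do not say that they came from separate cultures, so the p-values measure the spread between these libraries, which may be technical. The comparison addresses which mRNAs of these fibroblasts differ after D-gal, which the study used to induce senescence.

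Total counts lay between 16876087 and 20830349 in the Control group and between 13759108 and 15157064 in the D-gal group, so the D-gal libraries were all shallower. Of 10 fibroblast markers, 9 had at least 10 counts in every library, and the exception was Lum. Their summed level in CPM (counts scaled to the library total) was 7611 to 7806 with PBS against 4996 to 5320 with D-gal. Pax7, Myf5 and Myod1 of the 9 myogenic markers were at 0 in every library, as were 3 of the 4 adipocyte and 2 of the 4 epithelial markers. The 5 leukocyte markers summed to 49.3 CPM in Control replicate 1, against 9.20 to 11.9 in the other Control libraries and 8.54 to 8.95 in the D-gal libraries, with Ptprc at 13, 1 and 0 counts and Lyz2 at 627, 114 and 86 counts in Control replicates 1, 2 and 3. With PBS and with D-gal in turn, the endothelial markers summed to 2.59 to 3.06 and 1.80 to 2.21, the myogenic to 5.40 to 6.31 and 3.67 to 4.42, and the epithelial, nearly all of it Cdh1, to 7.09 to 8.66 and 1.69 to 2.65. The adipocyte markers had 1 count in all.

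Promoters are shown for Cemip, which rose under D-gal, and for Cd44 and Vcan, which fell, since these 3 genes carried the most counts of the group. Each runs from 250 bases before to 50 bases after the start site, on GRCm38.p6, as given by RefSeq. The Cemip promoter lies at chr7:84086456-84086755, the Cd44 promoter at chr2:102901616-102901915 and the Vcan promoter at chr13:89742463-89742762, all on the minus strand. Capitals mark the letters of 6 motifs, which were searched on both strands and did not overlap each other in these 3 promoters. The TATA box was searched as TATAAA. The GC box was searched as GGGCGG. The CCAAT box was searched by the letters of its name. The AP-1 element was searched as TGANTCA. The NFAT core was searched as TGGAAA. The E-box was searched as CACGTG.
Cemip: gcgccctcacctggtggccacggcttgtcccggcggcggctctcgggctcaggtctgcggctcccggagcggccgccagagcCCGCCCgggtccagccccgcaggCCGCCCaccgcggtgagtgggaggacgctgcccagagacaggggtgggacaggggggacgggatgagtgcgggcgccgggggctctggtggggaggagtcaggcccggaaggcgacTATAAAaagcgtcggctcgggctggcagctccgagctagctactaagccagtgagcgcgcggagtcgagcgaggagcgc
Cd44: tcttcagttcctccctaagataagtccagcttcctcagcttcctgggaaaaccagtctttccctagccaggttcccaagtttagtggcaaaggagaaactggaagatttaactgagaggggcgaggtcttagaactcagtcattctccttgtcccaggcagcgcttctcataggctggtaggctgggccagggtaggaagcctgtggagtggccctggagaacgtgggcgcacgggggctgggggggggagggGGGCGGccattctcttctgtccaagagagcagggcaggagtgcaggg
Vcan: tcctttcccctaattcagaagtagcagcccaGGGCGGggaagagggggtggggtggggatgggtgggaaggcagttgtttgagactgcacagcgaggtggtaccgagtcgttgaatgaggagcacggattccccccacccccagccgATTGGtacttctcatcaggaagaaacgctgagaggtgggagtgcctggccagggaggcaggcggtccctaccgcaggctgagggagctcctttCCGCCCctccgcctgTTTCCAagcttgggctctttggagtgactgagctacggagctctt
The Cemip promoter held a TATA box that began at base -29 from the start site and 2 GC boxes, at -168 and -145. The Cd44 promoter held 1 GC box, at base 4, and the Vcan promoter held GC boxes at -219 and -10, a CCAAT box at -103 and an NFAT core at base 6. Of all 32851 RefSeq promoters of this length, 13.6% held the TATA box, 35.7% the GC box, 37.4% the CCAAT box, 7.81% the AP-1 element, 21.4% the NFAT core and 7.15% the E-box. RefSeq promoters were matched for 7 of the 9 genes, and those of Has2 and Has3 were not analysed here.

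Has2, which held most of the synthase mRNA per length in every library, fell under D-gal. The scarce Has3 was higher, and the scarce Has1 had 2 counts in the 3 D-gal libraries together. Among the genes that break hyaluronan down, Cemip and Hyal1 rose and Hyal2 did not pass the test. The reads of Hyal1 are of uncertain identity, since another gene covers 50.8% of its exons on the same strand. The receptor Cd44 and the proteoglycan Vcan fell, and Tnfaip6 did not pass the test. Of the 13407 genes that edgeR's filterByExpr kept, 16.9% were higher and 17.8% lower under D-gal at an adjusted p-value under 0.05 alone (quasi-likelihood test of edgeR, adjusted over all genes by Benjamini and Hochberg). With Has3 set aside, since it passed the filter on low counts through its D-gal libraries alone, 7 of the hyaluronan genes were tested, of which 2 were higher and 3 lower at that threshold. At the stricter rule of the study's methods, which adds a minimum of 1 for the size of the log2 fold change, 4.21% of all genes tested were called, and among the hyaluronan genes it was met by Has3 and by no other. In 49.1% of all genes tested the values of the 2 groups did not overlap, as in 5 of these 7.

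**Figure D1:**
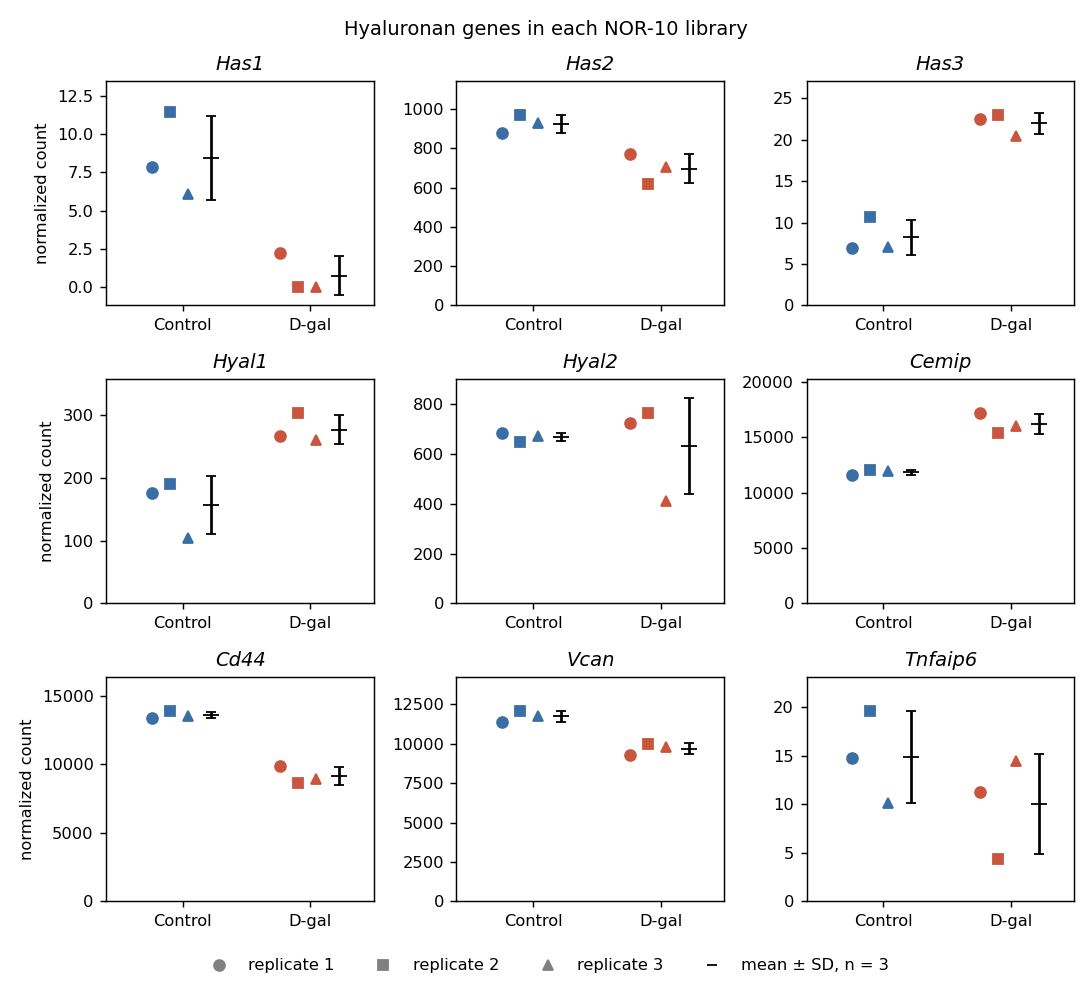
Normalized counts (TMM-scaled, linear axes) of the 9 hyaluronan genes in each of the 6 libraries, with symbols for replicates, and bars for the mean ± SD of n = 3. The groups are apart in every panel but those of Hyal2, where D-gal replicate 3 lies at 409.7, and Tnfaip6.

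Has2 (ENSMUSG00000022367, GRCm38 chromosome 15, 56665627 to 56694539, minus strand) has 1 annotated transcript with 4 exons. It encodes the synthase that makes most of the hyaluronan of fibroblasts. Its counts were 1007, 1186 and 919 with PBS against 685, 566 and 583 with D-gal. Normalized for library size and composition (TMM), these were 878, 968 and 928 with PBS against 769, 618 and 702 with D-gal, so the groups did not overlap and D-gal was the lower. The means were 924 ± 45.2 (SD, n = 3) and 696 ± 75.5 (SD, n = 3). Has2 fell by 24.7%, a log2 fold change of -0.41 (± 0.08 SE, edgeR adjusted p = 0.00678). A two-sided exact permutation test gave p = 0.1, the smallest that 3 libraries against 3 allow. The antisense gene Has2os overlaps 4.30% of the Has2 exons on the other strand. Whether counting used the strand is not given in the sources used here, so reads in the overlap could belong to either gene. Has2os had 27, 26 and 15 counts with PBS against 6, 11 and 7 with D-gal.

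Has3 (ENSMUSG00000031910, chromosome 8, 106870242 to 106884566, plus strand) encodes a synthase that makes shorter chains. Its counts were 8, 13 and 7 with PBS against 20, 21 and 17 with D-gal. After normalization these were 6.97, 10.6 and 7.07 with PBS against 22.4, 22.9 and 20.5 with D-gal, with no overlap. The log2 fold change was 1.39 (± 0.30 SE, edgeR adjusted p = 0.00807), 2.62-fold higher. The filter asked for about 10 counts in a library of median size in at least 3 libraries, which Has3 met in 0 Control and in 3 D-gal libraries. A gene that enters a test in this way had to be higher under D-gal, so its rise is given as a description of few counts. With at least 10 counts required in every library, Has3 was not tested at all. On log2(FPKM + 1), a scale that understates changes of low genes, the difference was 0.11 (limma, adjusted p = 0.0514). Chtf8 on the other strand overlaps 5.52% of the Has3 exons. It had 2418 ± 38.3 normalized counts (SD, n = 3) with PBS against 2111 ± 40.9 (SD, n = 3) with D-gal. Whether Chtf8 reads entered the Has3 counts was not tested.

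Has1 (ENSMUSG00000003665, chromosome 17, 17843328 to 17855188, minus strand) was under the filter on low counts. Its counts were 9, 14 and 6 with PBS against 2, 0 and 0 with D-gal. Pooled over the libraries and scaled by their normalized sizes, 2 counts against 29 gave a D-gal to Control ratio of 0.0880 (exact 95% interval 0.0102 to 0.348, which covers counting error only). Without a filter on low counts, Has1 had an adjusted p of 0.0291 in edgeR's test.

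The HAS proteins that GENCODE release M21 annotates are 583, 552 and 554 residues long for HAS1, HAS2 and HAS3. HAS2 and HAS3 shared 71.1% of aligned residues, HAS1 and HAS3 58.2%, and HAS1 and HAS2 55.7%. Of the 31-base words in their annotated transcripts, 0.176% (Has1), 3.33% (Has2) and 5.07% (Has3) also occur in transcripts of other genes.

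Levels of different genes were compared per length, as TMM-scaled CPM divided by the kilobases of annotated exons. On this scale Has2 made up 98.7%, 98.2% and 98.9% of the summed synthase level with PBS against 97.8%, 97.6% and 98.1% with D-gal. The share of Has3 was 0.579% ± 0.118 and 2.07% ± 0.292 (SD, n = 3) in the same order of groups. The share of Has1 was 0.827%, 1.09% and 0.606% with PBS against 0.268%, 0% and 0% with D-gal. The level of Has2 stood far above that of the other synthases in every library. The direction of the small change in its share depended on the gene length. In the deposited FPKM, the length was 2090 bases for Has1 where the annotated exons cover 4518, and 9734 for Has3 where they cover 6380. The Has2 share was then 97.8% ± 0.584 with PBS against 98.4% ± 0.289 with D-gal (SD, n = 3). It was thus higher rather than lower under D-gal.

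Cemip (ENSMUSG00000052353, chromosome 7, 83932857 to 84086502, minus strand) encodes a secreted protein that binds hyaluronan and is needed for its breakdown by fibroblasts. It had the most counts of the genes of hyaluronan breakdown, with 13271, 14727 and 11798 counts with PBS against 15282, 14114 and 13261 with D-gal. The D-gal libraries held as many Cemip reads as the deeper Control libraries. After normalization the values were 11565, 12017 and 11914 with PBS against 17150, 15412 and 15979 with D-gal, so that the groups did not overlap. Cemip rose by 36.8%, a log2 fold change of 0.45 (± 0.04 SE, edgeR adjusted p = 1.4e-04, exact permutation p = 0.1). No annotated gene overlaps its exons on either strand. Among all genes tested it ranked 435 by p-value.

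Hyal1 (ENSMUSG00000010051, chromosome 9, 107576927 to 107581710, plus strand) encodes a lysosomal hyaluronidase. Its counts were 202, 233 and 103 with PBS against 237, 277 and 216 with D-gal. After normalization these were 176, 190.1 and 104 with PBS against 266, 302 and 260.3 with D-gal. Control replicate 3 stood lowest, 1.83-fold under the highest Control library, and the spread in the Control group was 29.5% of the mean, where counting alone gives 7.47%. The log2 fold change was 0.81 (± 0.20 SE, edgeR adjusted p = 0.0166, exact permutation p = 0.1), 1.75-fold higher. It was 0.59 without Control replicate 3 (adjusted p = 0.00877) and 0.74 without D-gal replicate 2, where the adjusted p was 0.0550. The identity of these reads is uncertain. Naa80, listed in the deposited table as Nat6, covers 50.8% of the Hyal1 exons on the same strand and Hyal3 covers 4.21%. Nat6 itself had 161 ± 23.9 normalized counts (SD, n = 3) with PBS against 242 ± 14.8 (SD, n = 3) with D-gal, a log2 fold change of 0.59 (edgeR adjusted p = 0.00885). Hyal3 had 1, 1 and 1 counts with PBS against 8, 5 and 11 with D-gal. How the reads of the overlap were shared among these genes could not be told apart.

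Hyal2 (ENSMUSG00000010047, chromosome 9, 107567945 to 107572779, plus strand), which ends 4148 bp before the start of Hyal1, encodes a hyaluronidase anchored to the cell surface. Its counts were 783, 795 and 665 with PBS against 643, 698 and 340 with D-gal. After normalization the Control libraries lay between 649 and 682, while the D-gal libraries had 722, 762 and 409.7. D-gal replicate 3 lay below all the others and D-gal replicates 1 and 2 above all Control libraries, so the groups overlapped. The spread in the D-gal group was 30.6% of the mean, where counting alone gives 4.22%. The log2 fold change was -0.08 (± 0.20 SE, edgeR adjusted p = 0.796, exact permutation p = 1). Without D-gal replicate 3 it turned to 0.15, with an adjusted p of 0.115. No annotated gene overlaps the Hyal2 exons, and 0% of its 31-base words occur in other genes. HYAL1 and HYAL2 share 41.5% of their aligned residues.

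**Figure D2:**
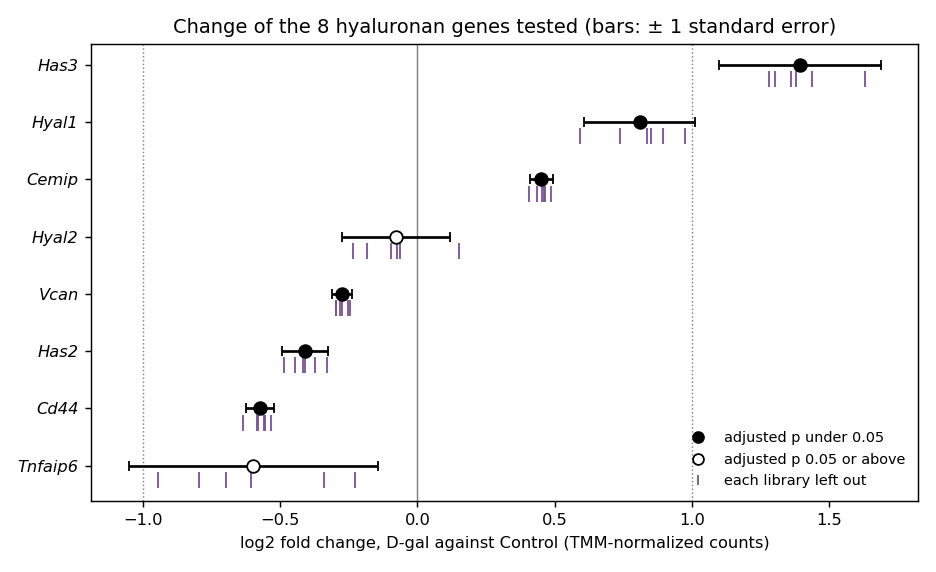
Log2 fold change (D-gal against Control) of the 8 hyaluronan genes tested, with bars of ± 1 standard error, and ticks for the value with each of the 6 libraries left out. The ticks of Has3, Hyal1, Cemip, Vcan, Has2, Cd44 and Tnfaip6 stay on one side of 0, and 1 tick of Hyal2 lies at 0.15.

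Cd44 (ENSMUSG00000005087, chromosome 2, 102811141 to 102901665, minus strand) encodes the main hyaluronan receptor and has 9 annotated transcripts, of which 8 are coding. Its counts were 15368, 16989 and 13365 with PBS against 8797, 7890 and 7392 with D-gal. Normalized, these were 13392, 13863 and 13497 with PBS against 9872, 8616 and 8907 with D-gal. All D-gal libraries lay well below the Control libraries. The mean was 13584 ± 247 (SD, n = 3) with PBS against 9132 ± 658 (SD, n = 3) with D-gal. Cd44 fell by 32.8%, a log2 fold change of -0.57 (± 0.05 SE, edgeR adjusted p = 1.1e-04, exact permutation p = 0.1), and ranked 358 by p-value among all genes tested. Leukocytes also express Cd44, and without Control replicate 1, the library with the highest leukocyte markers, the log2 fold change was -0.58 (adjusted p = 6.5e-04). The counts are per gene, so the standard and variant isoforms of CD44 were not told apart.

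Vcan (ENSMUSG00000021614, chromosome 13, 89655312 to 89742509, minus strand) encodes versican, whose N-terminal domain binds hyaluronan. Its counts were 13036, 14776 and 11633 with PBS against 8278, 9146 and 8114 with D-gal. Normalized, these were 11360.1, 12057 and 11748 with PBS against 9289.9, 9987 and 9777 with D-gal, and the groups did not overlap. Vcan fell by 17.4%, a log2 fold change of -0.28 (± 0.04 SE, edgeR adjusted p = 9.1e-04, exact permutation p = 0.1). This was the smallest change of the genes past the threshold. No other gene overlaps its exons, and the splice forms of its 9 annotated transcripts were not told apart.

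Has2, Cd44 and Vcan fell in the libraries in which the summed fibroblast markers were also lower. In bulk RNA, fewer cells of a type and less RNA of a gene per cell cannot be told apart. Of the 9 fibroblast markers tested, 6 were lower and 1 higher at an adjusted p-value under 0.05, beside 17.8% and 16.9% of all genes. Their median log2 fold change was -0.66, against 0.0036 over all genes tested. The markers did not all change alike. The collagens Col1a1, Col1a2 and Col3a1 had log2 fold changes of -0.71, -0.97 and -1.18, while Pdgfra had -0.08 (edgeR adjusted p = 0.0679) and Pdgfrb 0.19. Abundant genes weigh most in the sum. Col1a1 had a mean of 39305 normalized counts with PBS against 24065 with D-gal, and Col1a2 35912 against 18327. Pdgfra had 10343 against 9757 and Pdgfrb 6897 against 7893, so the lower sum largely followed the 2 collagens. The part of these markers in the falls of Has2, Cd44 and Vcan was not tested. The share of mitochondrially encoded reads was 4.26% to 4.44% with PBS against 4.87% to 4.98% with D-gal.

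Tnfaip6 (ENSMUSG00000053475, chromosome 2, 52038009 to 52056686, plus strand) had 17, 24 and 10 counts with PBS against 10, 4 and 12 with D-gal. The normalized values were 14.8, 19.6 and 10.1 with PBS against 11.2, 4.37 and 14.5 with D-gal, and they overlapped. The log2 fold change was -0.60 with a standard error of 0.45 (edgeR adjusted p = 0.351, exact permutation p = 0.4), so no difference was detectable at this depth.

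Ratios of counts between genes of the same library do not depend on the normalization. Cemip had 0.864, 0.867 and 0.883 counts for each Cd44 count with PBS against 1.74, 1.79 and 1.79 with D-gal. The ratio of Cemip to Has2 counts was 13.2, 12.4 and 12.8 with PBS against 22.3, 24.9 and 22.7 with D-gal. Against Vcan, Cemip had 1.02, 0.997 and 1.01 counts with PBS against 1.85, 1.54 and 1.63 with D-gal. Each of these ratios was higher in every D-gal library than in every Control library. This had to be so, since normalized Cemip was higher and Cd44, Has2 and Vcan lower in every D-gal library. The ratios thus describe the same values again and add no further test.

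**Figure D3:**
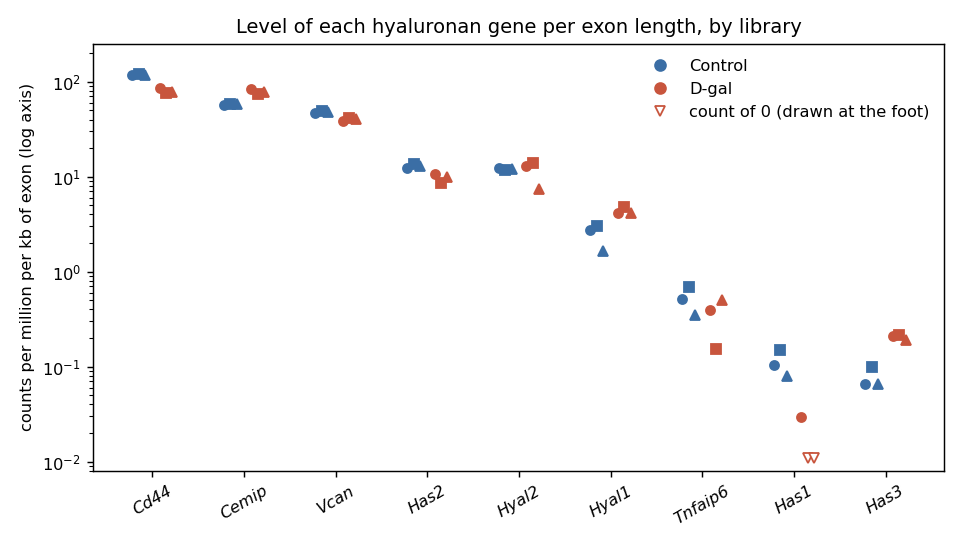
TMM-scaled CPM per kb of annotated exon (log axis) of each hyaluronan gene in the 3 Control and 3 D-gal libraries. Cd44 lies above Cemip in the Control libraries, at 119 against 57.6 on average, and the ranges of both meet in the D-gal libraries. The deposited FPKM, with other gene lengths, place Cemip above Cd44 in the D-gal libraries. Has1 is at 0 in 2 of the D-gal libraries.

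Per exon length, the order of the levels in the Control group was Cd44 (119 ± 2.17 CPM per kb, SD, n = 3), Cemip (57.6 ± 1.15), Vcan (48.3 ± 1.44), Has2 (13.0 ± 0.635), Hyal2 (12.1 ± 0.310), Hyal1 (2.47 ± 0.728), Tnfaip6 (0.516 ± 0.165), Has1 (0.111 ± 0.0360) and Has3 (0.0767 ± 0.0193). The ranges of Has2 and Hyal2 overlapped, as did those of Has1 and Has3, and the other neighbours in this order were apart. In the D-gal group Cd44 (80.2 ± 5.78) and Cemip (78.7 ± 4.31) overlapped at the top of the order. Vcan followed at 39.9 ± 1.47. Hyal2 (11.4 ± 3.49) and Has2 (9.79 ± 1.06) overlapped again, and Hyal1 had a level of 4.35 ± 0.361. Tnfaip6 (0.349 ± 0.179) and Has3 (0.205 ± 0.0121) overlapped, and Has1 (0.00986 ± 0.0171) came last. Among all genes tested, Cd44 lay at percentile 97.6 of the mean level per length with PBS against 96.4 with D-gal. Has2 lay at percentile 70.1 and 62.7, and Cemip at 94.6 and 96.3. The order of the hyaluronan genes depended on the gene length. In the deposited FPKM, whose gene lengths differ, Cemip lay above Cd44 with D-gal, at 68.7 ± 3.52 against 44.0 ± 3.01 (SD, n = 3). Has2 and Hyal2 were then apart in both groups, at means of 12.8 and 5.04 with PBS against 9.90 and 4.88 with D-gal.

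The pattern over the 6 libraries most like that of Has3, by the root mean square distance between log2 profiles each centred on its own mean, was that of Gm19325 (distance 0.0537). Slc35g1 (0.0636) and Tex15 (0.0786) came next. Gm19325 had 5, 8 and 4 counts with PBS against 15, 17 and 14 with D-gal, which are as few as those of Has3.

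The precursors of hyaluronan are UDP-glucuronic acid, made from UDP-glucose by UGDH, and UDP-N-acetylglucosamine, made in the hexosamine pathway that GFPT1 and GFPT2 start and UAP1 ends. Over all genes tested, 17.8% were lower and 16.9% higher at an adjusted p-value under 0.05. Of the 8 genes of this supply, 5 were lower, 1 was higher and 2 did not pass that threshold. Uap1l1, a paralog of Uap1, fell most. It had 980, 1068 and 782 counts with PBS against 361, 378 and 312 with D-gal. Its log2 fold change was -1.07 (± 0.07 SE, edgeR adjusted p = 2.1e-05), past the rule that 4.21% of all genes met. Ugdh changed by -0.50 (SE 0.04), Gfpt2 by -0.39 (SE 0.07), Uap1 by -0.33 (SE 0.06) and Gfpt1 by -0.23 (SE 0.04) on the log2 scale. Ugp2, which makes UDP-glucose, was higher by 0.37 (SE 0.06). Pgm3 had a log2 fold change of -0.15 (adjusted p = 0.159) and Gnpnat1 of 0.20 (adjusted p = 0.110), and genes of the other strand overlap 28.3% and 81.9% of their exons. The median over the 8 genes was -0.28. The ratio of Has2 to Ugdh counts was 0.218, 0.228 and 0.217 with PBS against 0.249, 0.214 and 0.244 with D-gal, with overlap between the groups.

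Of the 9 further genes of hyaluronan breakdown found in the table, 4 were tested. Of these, 1 was higher and 1 lower, beside 16.9% and 17.8% of all genes tested. Tmem2, a cell surface hyaluronidase whose protein shares 47.5% of aligned residues with CEMIP, rose by a log2 fold change of 0.39 (± 0.06 SE, edgeR adjusted p = 0.00139). Its normalized count was 1213 ± 84.4 (SD, n = 3) with PBS against 1592 ± 47.7 (SD, n = 3) with D-gal. The ratio of Tmem2 to Cemip counts was 0.0973, 0.108 and 0.102 with PBS against 0.0915, 0.107 and 0.0976 with D-gal. Gusb, a lysosomal glucuronidase, changed by -0.16 (adjusted p = 0.0159). Hyal4, Hyal5 and Spam1 were at 0 in every library, and Hyal6 had 5 counts in all.

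Of the 20 further hyaluronan-binding proteins, 5 were tested. Of these, 3 were higher and 2 lower, beside 16.9% and 17.8% of all genes tested. Layn, a transmembrane hyaluronan receptor, had 759 ± 35.8 normalized counts (SD, n = 3) with PBS against 1320 ± 116 (SD, n = 3) with D-gal, a log2 fold change of 0.80 (edgeR adjusted p = 1.4e-04). Ptx3, a pentraxin that crosslinks hyaluronan with TSG-6 and heavy chains, rose by 0.41 (SE 0.04). Itih2, which encodes a heavy chain of inter-alpha-inhibitor, had 317, 334 and 334 counts with PBS against 147, 126 and 136 with D-gal, a log2 fold change of -0.92 (SE 0.12). The others were Hapln4 (0.83) and Hmmr (-0.15). Lyve1 and Hapln1 were at 0 in every library, and Acan had 3 counts in all.

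Of the 8 genes of CD44's partners and shedding, 4 were lower, 1 was higher and 3 did not pass the test. The shares over all genes tested were 17.8% lower and 16.9% higher. Spp1, which encodes the CD44 ligand osteopontin, changed by -0.47 (standard error 0.04, adjusted p = 7.9e-05), and 18.8% of its exons overlap another gene on the same strand. Ezr, which links CD44 to actin, changed by -0.47 (SE 0.04), as did Mmp14, a membrane protease that sheds CD44 (-0.47, standard error 0.05). The partner Msn, with a mean of 16129 normalized counts with PBS against 1316 for Ezr, changed by -0.15 (SE 0.04). The 1 higher gene was the partner Rdx, at 0.11 (SE 0.03, edgeR adjusted p = 0.0272). The median of the 8 was -0.41.

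Of the 7 proteases that cleave versican, 4 were tested. Of these, 3 were higher and 1 lower, beside 16.9% and 17.8% of all genes tested. Adamts9 had the largest rise of the 29 genes tested in these lists. It had 1997, 2161 and 1649 counts with PBS against 3608, 3939 and 3535 with D-gal. Its log2 fold change was 1.29 (± 0.04 SE, edgeR adjusted p = 1.8e-06), with 9.18% and 2.82% of its exons under 2 genes of the other strand. Adamts1 changed by 0.53 (SE 0.03), Adamts5 by 0.22 (SE 0.03) and Adamts4 by -0.51 (SE 0.16).

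**Figure D4:**
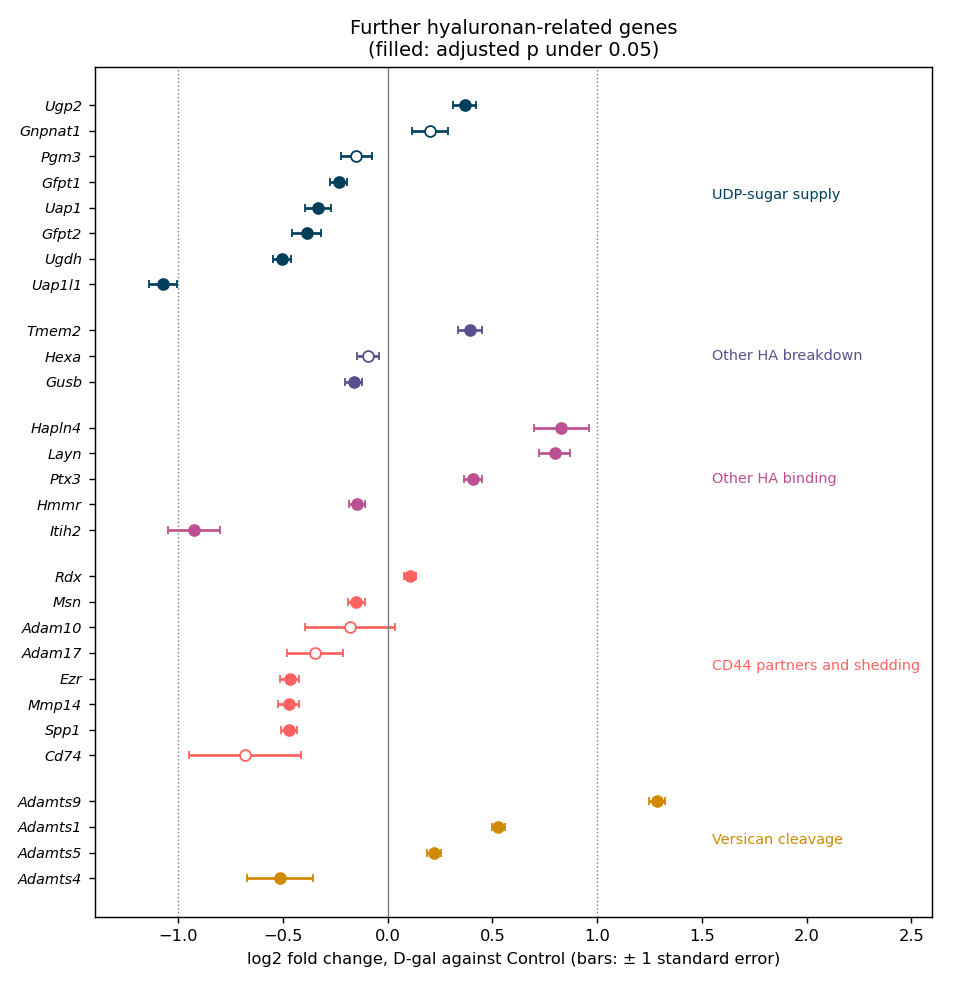
Log2 fold change (D-gal against Control) with bars of ± 1 standard error for 28 of the 29 further hyaluronan-related genes tested, in 5 lists, filled where the adjusted p was under 0.05. Uap1l1 at -1.07 and Adamts9 at 1.29 lie beyond the dotted lines at -1 and 1.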

How the data were processed

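RNA-seq of 3 Control and 3 D-gal libraries of NOR-10 cells was re-analysed. The authors deposited 1 table with a raw read count per gene and library, and with FPKM values, which the authors computed from these counts, a gene length and the library total. According to the methods, reads were checked with FastQC and trimmed with Trimmomatic, and the submitters' processing notes name HISAT2 (version 2.0.4). The counting tool, strand setting and annotation are not given in the sources used here. The labels name an RNA-seq kit and the methods a small RNA kit. Column names gave the sample of each column.

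Counts were tested with edgeR (version 4.0.16, R 4.3.3) using its quasi-likelihood test on TMM-scaled libraries, after filterByExpr and without covariates, and with Benjamini-Hochberg adjustment over the 13407 genes kept. A standard error (SE) is the size of the fitted log2 difference over the root of its F. A normalized count is scaled by the TMM library size to the mean such size. The two-sided exact permutation test used log2(TMM-scaled CPM + 0.5) over 20 assignments. Every pair of replicates differed by more than sampling noise (6.00 to 9.42 as chi-square over its degrees of freedom). Coordinates are those of the deposited table. Exon lengths, overlaps, 31-base words and coding sequences are from GENCODE release M21 (GRCm38), in which 8 of the 9 genes have the deposited start and end, all but Has1.

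The genes, the 5 context lists (53 symbols) and the alternatives were chosen with earlier results of these data known. The naming rule took all 9 genes, and in each context list the genes called or else up to 3 with the smallest p, plus the 3 genes most like each member called. The values of 1 context gene that this rule takes are not reported here. The other context genes were named after their values were seen, and the overlapping genes after the annotation was read. Alternatives were DESeq2 (version 1.42.0), RLE factors, other filters, a replicate block, each library left out, limma (version 3.58.1) on log2(FPKM + 1) or log2(FPKM + 0.1), thinning to the smallest library, other thresholds and glmTreat. The functions were tested on simulated data.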

Additional observations from a re-analysis of the deposited data

How the results depend on the processing

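With Has3 set aside, since it passed the filter through its D-gal libraries alone, the adjusted p-value alone was met by 5 of the 7 other hyaluronan genes tested, beside 16.9% (higher) and 17.8% (lower) of all genes tested. The number past the fold criterion as well, Has3 included, was 1 and became 0 with at least 10 counts required in every library, with limma on log2(FPKM + 1) or log2(FPKM + 0.1) and with glmTreat, 2 without a filter on low counts, where Has1 was added, and 6 at the adjusted p-value alone. With each library left out it was 1. Over all genes the count of 564 became 120 with limma on log2(FPKM + 1), 95 with glmTreat and 4661 at the adjusted p-value alone, and lay between 491 and 572 with each library left out. The 2 context genes called became 1 with limma on log2(FPKM + 1) and 1 with glmTreat. Has2, Cemip, Cd44 and Vcan kept their direction and their side of the threshold in all 14 alternatives each, with log2 fold changes from -0.49 to -0.33, 0.41 to 0.49, -0.63 to -0.53 and -0.30 to -0.23. Hyal1 no longer passed the adjusted p-value without D-gal replicate 2 (0.74, adjusted p = 0.0550), nor did Has3 with limma on log2(FPKM + 1) (0.11, adjusted p = 0.0514). Hyal2 turned to 0.15 without D-gal replicate 3, from a range down to -0.24 without D-gal replicate 2. In each of these the cause was not tested. The Has2 share of the synthases was 98.6% with PBS and 97.8% with D-gal, and became 97.8% and 98.4% with the deposited FPKM, whose gene lengths differ. With each library left out it lay between 98.4% and 98.8% and between 97.7% and 98.0%.

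Same-numbered libraries did not deviate together (correlations of -0.0018, -0.0057 and 0.0211 across genes), so no pairing of the samples by number was seen. With 3 libraries per group, a weak pairing could be missed. With the replicate number as a block, 530 genes were called, and 3982 of the 13407 genes tested passed the adjusted p-value alone. The hyaluronan genes past the adjusted p-value alone numbered 6, including Has3, which entered the test through its D-gal libraries alone. With this block the log2 fold changes were -0.41 for Has2 and 0.84 for Hyal1. Has1, Has3 and Tnfaip6 had at most 24 counts in a library, which limits what can be said of them.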
